A study of Mus musculus with 2 samples.

Results

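Killer lectin receptors, granzymes and perforin form the recognition and killing apparatus of natural killer (NK) cells and cytotoxic T cells. They were examined here on microarrays of lymph node cells sorted as stroma. The 41 genes were chosen by symbol alone, of 37074 gene names on the array. They are the Klr genes whose family letter is followed by a number only, the granzymes Gzma to Gzmn, Prf1, Nkg7, Ncr1, Eomes and Tbx21. They comprise 27 receptors, of which 16 are Ly49 receptors (Klra), 12 granule genes and 2 transcription factors, and they carry 61 of the 56603 probes. Receptors with a letter after the number, such as Klrb1c, fall outside this choice and are described as related genes.

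One array held RNA of CD45-negative cells sorted from nodes that drain a 4T1 mammary carcinoma, taken from female C57BL/6 mice 2 weeks after the tumor cells were placed under the skin at the mammary gland. The other array held CD45-negative cells of nodes from normal mice, also female, that carried no tumor. 4T1 is known as a line of BALB/c origin, which differs from the strain the labels name for the host, and the labels do not state how many mice stand behind each array. With 1 array in each group there is no replicate check and no p-value, and genes are called higher or lower by size alone, at 2-fold or more.

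Ptprc, which encodes the CD45 antigen the sort selected against, had a signal of 17432 on the tumor-draining array and 3702 on the normal array, a 4.91-fold difference. Signals are the scanner software's background-subtracted spot intensities, and differences were taken on the log2 scale after each array was scaled to its 75th percentile. Of 24683 genes whose brightest probe was well above background on at least 1 array, 2829 passed 2-fold upward and 4075 downward. Of these calls 41.0% were higher. Scaling to spike-in RNA gave 10717 upward and 2086 downward, or 83.7% higher. The median difference over all genes so measured was 0.10, and 0.87 when scaled to the spike-ins. In a bulk sample, more cells of a type and more RNA per cell cannot be told apart.

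NK cells decide whether to kill by adding up inhibitory and activating signals from surface receptors, many of them C-type lectin-like proteins encoded in the NK gene complex on mouse chromosome 6. Inhibitory receptors such as most Ly49 proteins and the CD94/NKG2A pair read MHC class I molecules on the target, while activating ones such as NKG2D read stress-induced ligands and signal through the adaptors DAP10 and DAP12. On activation, granules release perforin, which opens the target membrane, and granzymes, serine proteases that enter and trigger cell death. In lymph nodes most of these genes are known from NK cells, CD8 T cells and innate lymphoid cells, which carry CD45, and not from fibroblastic or endothelial stroma. Not all are, and Klra17, described below, is known from plasmacytoid dendritic cells and other myeloid cells.

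The Ly49 genes are close copies of each other, and the probes themselves show how far their signals can be separated. Each probe is 60 bases long. Among the 1830 pairs of member probes, 15 pairs that carry different gene names matched at 80% or more of the bases over an ungapped overlap of at least 30 bases, and all 8 gene names in these pairs were Ly49 receptors. A 30-base window is printed here for 7 of these probes and for the Klra17 probe, as aligned to the probe of Klra7, with capitals at bases that differ from it.
Klra7: tttgtggtaagagactggataaatttcctc
Klra23 (brighter probe): tttgtggtaagagactggataaattCcctc
Klra23 (dimmer probe): tttgtAgtaagagactggataaatttcctc
Klra6 (brighter probe): tttgtggGaagaAactggataaatttcctc
Klra4: tttgtggGaagagaTtggaCaaattCcctc
Klra15 (dimmer probe): tttgtggGaagagaTtggaCaaattCcctc
Klra17 (brighter probe): tttgtgAGaagagactggataaGttCcctG
Klra5 (dimmer probe): tttgtggGaagaAactggatCaTttCcctG
The Klra4 and Klra15 windows are identical, and both Klra23 windows differ from Klra7 at 1 base each. The signals of these probes may therefore come from the same transcripts, and they cannot be taken as independent measurements. For Klra15 this applies to the dimmer probe. Its brighter probe, which gives the value of the gene, was in none of the 15 pairs. Likeness in the window did not always go with a similar signal. The brighter Klra6 probe, which differs from Klra7 at 2 bases of the window, had 7.73 on the tumor-draining array, against 98.7 for Klra7. Over their full overlap, however, these 2 probes matched at only 45 of 56 bases. The brighter Klra23 probe matched the Klra7 probe at 44 of 45. The window therefore overstates the likeness of Klra6 and Klra7. Klra12, Klra15, Klra19 and Klra22 had no match by accession or symbol in the RefSeq gene table of the C57BL/6J assembly GRCm38.p6, where Klra22 is listed as a synonym of Klra1. The other 37 members matched.

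Probes of the other families had no such overlap between gene names. The following are shown because they stand for the groups the results turn on, namely CD94, its partner NKG2A and the related KLRE1, 2 granzymes that were measured, and 3 granzymes that were below background on both arrays. Positions are mm9 coordinates of the array files, which do not state exon or UTR.
Klrd1, chr6:129548391-129548450: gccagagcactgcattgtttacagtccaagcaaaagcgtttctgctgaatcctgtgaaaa
Klrc1, chr6:129628315-129628374: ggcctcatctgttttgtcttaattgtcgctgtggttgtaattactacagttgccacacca
Klre1, chr6:129534195-129534254: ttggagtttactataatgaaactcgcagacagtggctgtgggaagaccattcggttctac
Gzmk, chr13:113961816-113961875: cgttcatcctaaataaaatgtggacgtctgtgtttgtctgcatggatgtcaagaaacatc
Gzmm, chr10:79157946-79158005: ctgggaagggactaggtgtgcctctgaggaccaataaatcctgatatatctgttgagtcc
Gzmd, chr14:56750116-56750175: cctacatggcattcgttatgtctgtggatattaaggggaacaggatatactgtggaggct
Gzmf, chr14:56824785-56824844: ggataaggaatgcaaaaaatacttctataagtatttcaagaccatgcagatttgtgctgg
Gzmn, chr14:56784795-56784854: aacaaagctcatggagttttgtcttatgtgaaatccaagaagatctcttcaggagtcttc

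Receptor genes were well above background at 21 of 27 on the tumor-draining array and 18 of 27 on the normal array. Granule genes were well above background at 7 of 12 on both arrays, and both transcription factors were on both. Over all genes the shares were 62.5% on the tumor-draining array and 64.0% on the normal array, against 77.8% and 66.7% for receptors and 58.3% on each array for granule genes. The shares of granule genes lay near the background, and so did that of receptors on the normal array. Klrc1, Klrc3 and Klra5 passed background with the tumor alone, a pattern found in 2.62% of all genes. No member was above background on the normal array only, against 4.13% of all genes.

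The 11 members above background on neither array were Klra2, Klra6, Klra10, Klra19, Klrb1, Klri1, Gzmd, Gzme, Gzmf, Gzmg and Gzmn. Their signals reached at most 8.32 on the tumor-draining array and 3.68 on the normal array, which leaves only an upper limit for them at the sensitivity of these arrays. The lowest signal that the software marked as well above background was 8.27 on the tumor-draining array and 7.72 on the normal array.

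**Figure D1:**
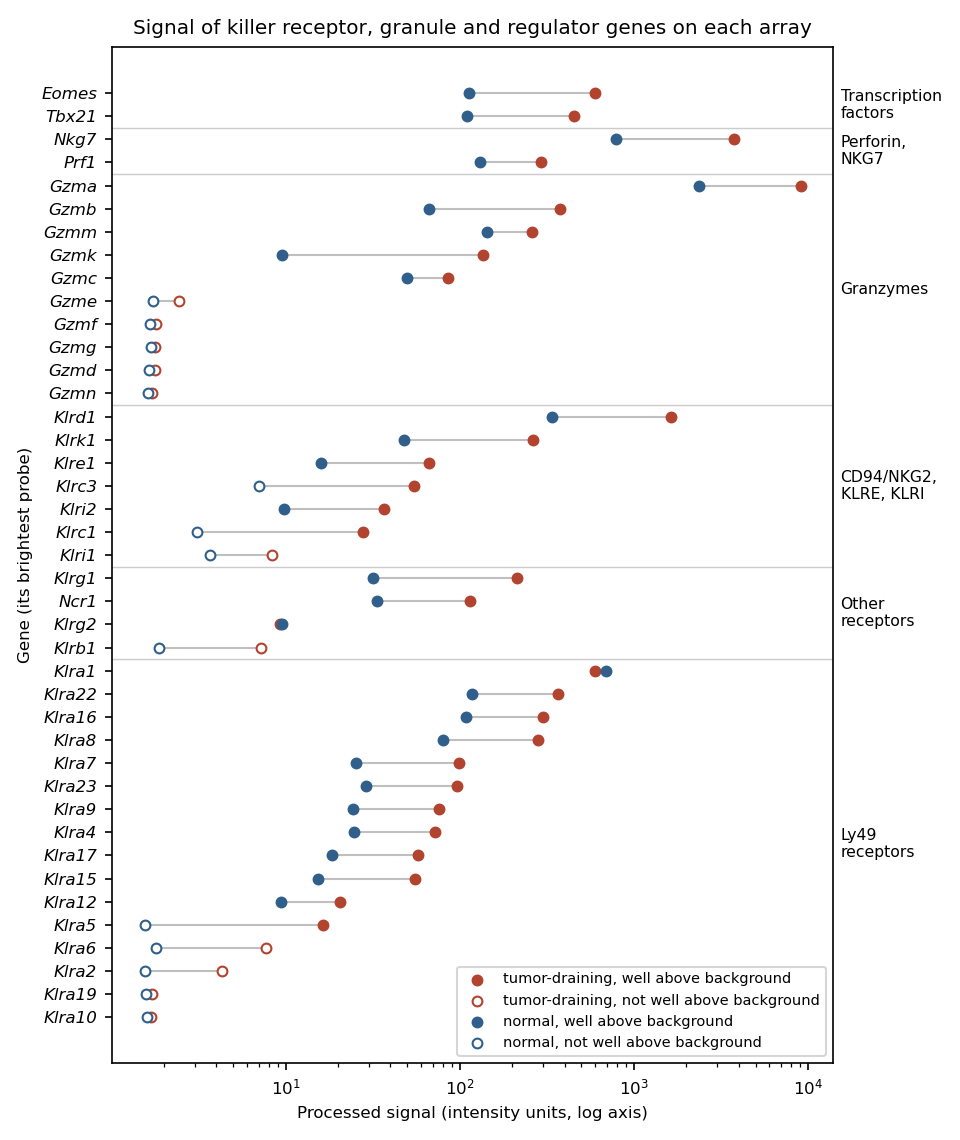
Processed signal (log axis) of the 41 members on the tumor-draining array (red) and the normal array (blue), each by its brightest probe, with filled points well above background and open points not. Most filled red points lie right of the blue ones, Klra1 and Klrg2 show both points at nearly the same signal, and 5 granzymes lie at the floor on both arrays.

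Of the 30 members measured on at least 1 array, 26 were higher on the tumor-draining array by 2-fold or more and none was lower by that much. The shares over all genes measured in this way were 11.5% higher and 16.5% lower. At 4-fold or more, 11 of the 30 members were higher, against 2.80% of all genes. The 3 members that passed background with the tumor alone could not have gone the other way. Without them, 23 of 27 members were higher, against 11.1% of all genes above background on both arrays, and none was lower, against 15.9%. The 4 members within 2-fold were Klra1, Klrg2, Gzmc and Gzmm.

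Receptors and granule genes were close in size of difference with the main processing, but not under every setting. The median log2 difference was 1.84 over 21 receptors and 2.00 over 7 granule genes, with genes on 1 array only taken at their bound. With normexp background correction these medians were 0.83 and 1.52. Without a background filter they were 1.84 and 0.89, so that the order of the groups turned. Among the receptors, 19 of 21 were at least 2-fold higher, and 5 of 7 granule genes were. At least 8 of the 30 members exceeded the difference of Ptprc, which was 2.30 (Eomes, Nkg7, Gzmb, Gzmk, Klrc3, Klrd1, Klrg1 and Klrk1). The bounds of Klrc1 and Klra5 leave their place unknown. Over all genes, 462 of 24683 exceeded it. Nkg7 and Klrd1 did so by 0.02 and 0.04, under their spot error of 0.20. The order depended on the processing. With quantile normalization Ptprc was at 2.07, and Klre1 (2.20), Tbx21 (2.14) and Klra7 (2.08) exceeded it as well. After normexp background correction (offset 50), Ptprc was at 2.25. Nkg7 (2.20), Klrd1 (2.13), Eomes (1.95), Gzmb (1.90), Klrk1 (1.67), Klrg1 (1.62) and Gzmk (1.52) then lay under it, and Klrc3 was at 0.84.

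The scanner software's own error of a spot gave an error of 0.20 to 0.42 for the log2 differences of members above background on both arrays. Different probes of 1 gene had a median SD of 0.27 over 7591 genes that had 2 or more such probes. Neither error covers differences between mice or sorts. Many members are dim, with 13 of the 21 measured receptors under a signal of 100 on the tumor-draining array. Normexp background correction, which adds an offset of 50 to every signal, left 6 of the 19 receptor calls (Klra8, Klra16, Klra22, Klrd1, Klrg1 and Klrk1) and 4 of the 5 granule calls (Gzma, Gzmb, Gzmk and Nkg7).

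**Figure D2:**
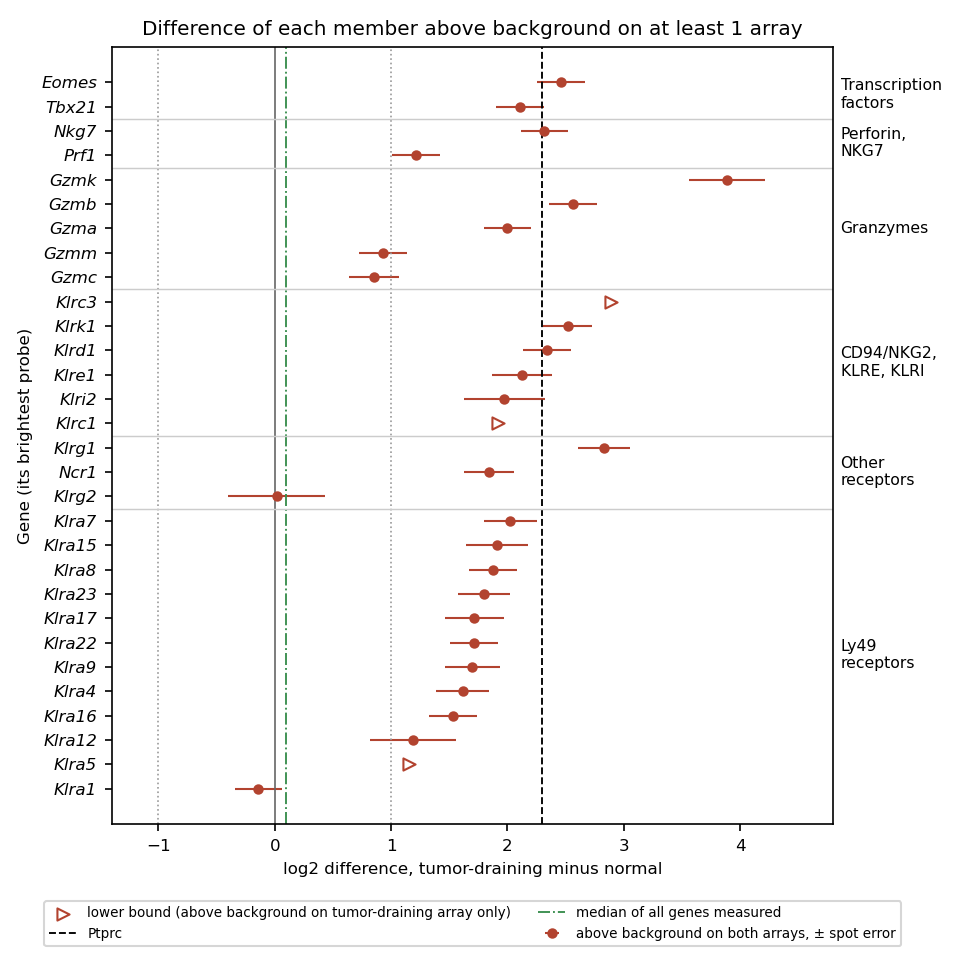
Log2 difference (tumor-draining minus normal) of the 30 members measured on at least 1 array, with bars for the error of the spots and open triangles for lower bounds. Dotted lines mark 2-fold, the dashed line marks Ptprc at 2.30 and the green line the median of all genes at 0.10. All members except Klra1, Klrg2, Gzmc and Gzmm lie right of the 2-fold line.

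Ly49 receptors bind MHC class I molecules and come as inhibitory and activating forms, whose gene content differs between mouse strains. Klra8 encodes Ly49H, an activating receptor for a cytomegalovirus protein that C57BL/6 mice carry and BALB/c mice lack. It had a signal of 281 on the tumor-draining array and 80.0 on the normal array, 3.67-fold higher, and its 3 probes ran from 1.80 to 1.93. Klra4, which encodes the activating Ly49D, had signals of 72.5 and 24.7 on the tumor-draining and normal arrays, a difference of 1.62. Klra7, the inhibitory Ly49G, was 4.06-fold higher, with 98.7 on the tumor-draining array and 25.3 on the normal array. It had the highest difference among Ly49 names measured on both arrays, by the brightest probe of each. Under normexp Klra7 was at 0.95, within 2-fold and below Klra22 (1.32), Klra8 (1.24) and Klra16 (1.18). Klra9, the inhibitory Ly49I, had 75.5 on the tumor-draining array against 24.3 on the normal array.

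Klra17 encodes Ly49Q, which is known from plasmacytoid dendritic cells and other myeloid cells and not from NK cells. Its signal was 57.9 on the tumor-draining array and 18.4 on the normal array. The difference was 1.72, so it moved with the others, or 0.62 with normexp. Siglech, a marker of plasmacytoid dendritic cells, was within 2-fold, with 37544 on the tumor-draining array and 39238 on the normal array. Of 5 measured markers of these cells, 4 were within 2-fold. The other, Ccr9, was 4.26-fold higher, with 324 on the tumor-draining array and 79.5 on the normal array. Of the names that belong to Ly49 alleles of other strains, Klra16 had 301 on the tumor-draining array and 109 on the normal array, Klra23 had 96.2 against 28.8, Klra15 had 55.6 against 15.4 and Klra12 had 20.6 against 9.45. Klra5, which encodes Ly49E, was at least 2.23-fold higher, with 16.5 on the tumor-draining array and 1.55, not well above background, on the normal array. In all, 11 of 12 measured Ly49 names were at least 2-fold higher. Of the 11 measured on both arrays, 10 were higher, from 1.19 for Klra12 to 2.02 for Klra7 on the log2 scale, all under the difference of Ptprc. With quantile normalization Klra7 (2.08) lay just above Ptprc (2.07). For Klra5 the bound does not say whether it exceeded Ptprc.

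The exception was Klra1, which encodes Ly49A, an inhibitory receptor that also occurs on some T cells. Its signal was 601 on the tumor-draining array and 692 on the normal array, a difference of -0.14, or 0.63 when scaled to the spike-ins. Klra22 disagreed with itself. Its brighter probe had 369 on the tumor-draining array and 118 on the normal array (1.71), and its dimmer probe 9.57 and 9.74 (0.04). The dimmer probe lay close to the limit of detection on both arrays, with a spot error of 0.40, which limits what its flat value can show. In mm9 the files place the brighter probe at chr6:129922175-129922234 and the dimmer one directly after it at chr6:129922235-129922294. The brighter Klra15 probe, with a difference of 1.91, is placed at chr6:129922274-129922333, which overlaps the position of the dimmer Klra22 probe. This overlap is one of file positions only, and shared bases between these probes are not shown. The flat probe of Klra22 is also the one that resembles the Klra1 probe, with which it shares a run of 16 bases, shown in capitals.
Klra1: AGTGCAAAGAGAGAGAgagaaaatctggaa
Klra22 (dimmer probe): AGTGCAAAGAGAGAGAcaatcctgaagatt
Over 57 aligned bases these 2 probes matched at 40. The mean over both Klra22 probes was 0.87, under 2-fold. The brighter Klra22 probe in turn matched the Klra16 probe at 35 of 39 bases, and these gave 1.71 and 1.53.

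**Figure D3:**
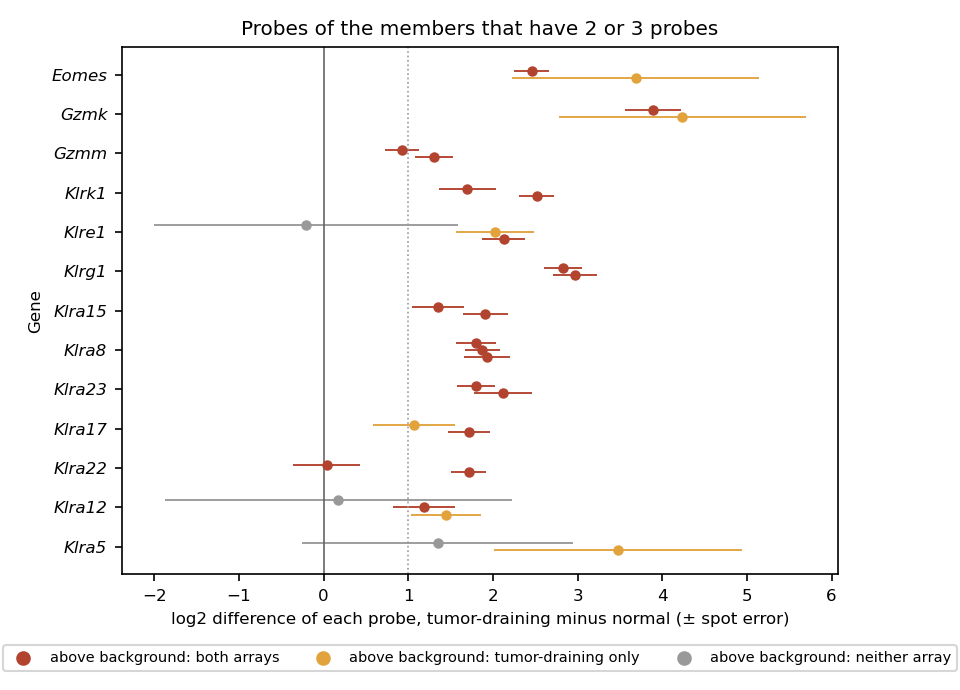
Log2 difference (tumor-draining minus normal) of each probe, for the measured members with 2 or 3 probes, with the error of the spots. Red probes were above background on both arrays, yellow ones on the tumor-draining array only (plotted at their measured value, not at a bound) and grey ones on neither. The probes of Klra8, Klrg1 and Klra23 lie close together and those of Klra22 lie apart.

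CD94, the NKG2 receptors and their KLRE and KLRI relatives had a median difference of 2.23, against 1.71 for the Ly49 genes. Normexp brought the groups closer. Klrd1 (2.13) and Klrk1 (1.67) then lay above all Ly49 genes, which ran from -0.15 for Klra1 to 1.32 for Klra22. Klri2 (0.48), Klrc1 (0.51), Klre1 (0.83) and Klrc3 (0.84) lay inside that range. Klrd1, which encodes CD94, had a signal of 1634 on the tumor-draining array and 337 on the normal array, 5.06-fold higher. Klrc1, which encodes its inhibitory partner NKG2A, had 27.9 on the tumor-draining array and 3.09 on the normal array, where it was not well above background, a bound of at least 3.77-fold. Klrc3, the activating partner NKG2E, had 54.9 on the tumor-draining array and 7.06 on the normal array and was at least 7.42-fold higher. A difference between the inhibitory and the activating partner cannot be read from these values, since both are bounds.

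Klrk1 encodes NKG2D, the receptor for stress-induced MHC-like ligands. It was 5.72-fold higher, with 263 on the tumor-draining array and 48.1 on the normal array. Its second, dimmer probe gave 1.70 in place of 2.52 on the log2 scale. Klre1 and Klri2, which encode chains of heterodimeric receptors, were 4.37-fold and 3.92-fold higher, with 66.9 and 36.7 on the tumor-draining array and 16.0 and 9.76 on the normal array. All 6 measured genes of this group passed 2-fold, but only Klrd1 and Klrk1 did with normexp. Klri1 was on neither array.

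Klrg1, an inhibitory receptor for cadherins that marks mature NK cells and antigen-experienced T cells, rose most among receptors measured on both arrays. Its signal was 215 on the tumor-draining array and 31.6 on the normal array, 7.10-fold higher, and its second probe gave 2.97 against 2.83. This rank was lost with normexp, where Klrg1 was at 1.62, under Klrd1 (2.13) and Klrk1 (1.67). Ncr1, which encodes the NK receptor NKp46, had 115 on the tumor-draining array and 33.5 on the normal array, 3.58-fold higher, or 0.99 on the log2 scale with normexp. Klrg2 did not follow, with 9.29 on the tumor-draining array and 9.59 on the normal array, close to the limit of detection.

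Granule genes differed in size of change. Nkg7, a membrane protein of cytotoxic granules, had a signal of 3786 on the tumor-draining array and 792 on the normal array, 4.99-fold higher. Gzma, the tryptase granzyme A, had 9068 on the tumor-draining array and 2366 on the normal array, 4.00-fold higher. Gzmk, a tryptase next to Gzma on chromosome 13, had the largest difference of the members measured on both arrays, 14.8-fold, with 136 on the tumor-draining array and 9.57 on the normal array, where it lay near the limit of detection. With normexp its difference was 1.52 in place of 3.89, under those of Nkg7 (2.20), Gzma (1.94) and Gzmb (1.90). Gzmk is known from CD8 T cells that retain memory potential more than from mature NK cells.

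On chromosome 14, Gzmb, the granzyme that activates caspases, was 5.91-fold higher, with 377 on the tumor-draining array and 66.6 on the normal array. Its neighbour Gzmc had 85.6 on the tumor-draining array and 49.5 on the normal array, a difference of 0.85. The remaining members of that cluster, Gzmd, Gzme, Gzmf, Gzmg and Gzmn, were above background on neither array, with signals of 1.71 to 2.44 on the tumor-draining array and 1.62 to 1.73 on the normal array. In mice Gzmd, Gzme, Gzmf and Gzmg are known from strongly stimulated killer cells and from uterine NK cells.

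Prf1, which encodes perforin, was 2.32-fold higher, with 292 on the tumor-draining array and 131 on the normal array, or 0.92 on the log2 scale with normexp. Gzmm, known from NK cells and other innate lymphocytes, had 261 on the tumor-draining array and 143 on the normal array, a difference of 0.93, while its other probe gave 1.31 with 85.2 and 36.0 on the tumor-draining and normal arrays. When scaled to the spike-ins, Gzmc and Gzmm were 2-fold higher as well. Perforin, Gzmc and Gzmm thus lay under the median of the granule genes, and Gzmb, Gzmk and Nkg7 above it.

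The T-box transcription factors Tbx21 (T-bet) and Eomes direct the cytotoxic programme of NK and CD8 T cells. Eomes had a signal of 595 on the tumor-draining array and 113 on the normal array, 5.50-fold higher. Tbx21 had 454 on the tumor-draining array and 110 on the normal array, 4.31-fold higher. The second Eomes probe passed background with the tumor alone, with 19.6 against 1.59 on the normal array.

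Among 15 measured receptors of NK and cytotoxic T cells that fall outside the symbol rule, 9 passed 2-fold upward and 1 downward, with a median of 1.36. For this list and those below, the shares over all genes measured were 11.5% higher and 16.5% lower. With the spike-in scaling, 43.4% of all genes were higher. Klrb1c, the NK1.1 antigen, had a signal of 143 on the tumor-draining array and 51.9 on the normal array, 2.88-fold higher. Klrb1f, another NKR-P1 receptor, was within 2-fold at -0.33, or 0.44 when scaled to the spike-ins. Il2rb, the shared chain of the IL-2 and IL-15 receptors, was 5.40-fold higher. Tigit, an inhibitory receptor of NK and T cells, was at least 15.1-fold higher. Itga2, the CD49b integrin of NK cells and platelets, went the other way and was at least 4.10-fold lower, with 6.14, not well above background, on the tumor-draining array against 35.4 on the normal array. Scaling to the spike-ins gave 13 higher and 1 lower, and normexp gave 7 higher and none lower. With normexp Itga2 (-0.54) and Klrb1c (0.87) were within 2-fold, and Tigit was at 1.51 on the log2 scale.

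Adaptors moved with the receptors in part. Of 12 measured genes 9 passed 2-fold upward and none downward, with a median of 1.61. Hcst, which encodes DAP10, the NKG2D adaptor, was 5.09-fold higher, and Tyrobp, which encodes DAP12, the adaptor of activating Ly49 receptors and of myeloid receptors, 2.43-fold higher. Sh2d1a, the SAP adaptor of T and NK cells, had the highest difference (2.77), and Syk, a kinase shared with B cells, the lowest (0.78). Sh2d1b1 and Sh2d1b2, which encode EAT-2 adaptors of NK cells, were above background on neither array.

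Ligands read by these receptors went both ways. Of 17 measured ligands, 4 passed 2-fold upward and 4 downward, against 11.5% and 16.5% of all genes. Their median was -0.02, or 0.75 when scaled to the spike-ins. For NKG2D, H60a and H60b were 4.68-fold and 4.78-fold higher, while Raet1a and Raet1e were 3.96-fold and 3.52-fold lower, and related sequences within each family may not be told apart. With normexp H60a and H60b stayed past 2-fold (2.14 and 2.19), while Raet1a (-0.61) and Raet1e (-0.77) did not, which left 2 ligands lower. Clec2g and Clec2i, ligands of NKR-P1 receptors, were 4.04-fold and 4.00-fold higher. The cadherin Cdh2, a KLRG1 ligand, was 7.74-fold lower, and Pvrl2, a ligand of CD226 and TIGIT, 6.18-fold lower. H2-T23, which encodes the Qa-1 ligand of CD94/NKG2, had 33763 on the tumor-draining array and 35805 on the normal array, a difference of -0.02, or 0.75 when scaled to the spike-ins.

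Genes that load and release granules had a smaller median. Of 14 such genes 6 passed 2-fold upward and 1 downward, against 11.5% and 16.5% of all genes, with a median of 0.62. Scaling to the spike-ins gave 10 higher and none lower, with a median of 1.39. Ctsw, a cathepsin of cytotoxic cells, was 4.08-fold higher, Unc13d, which primes granules for fusion, 3.13-fold higher, and Ctsc, the protease that activates granzymes, 2.90-fold higher. Lamp1, a lysosomal membrane protein found in all cell types, was 2.34-fold lower. Of 4 measured granzyme inhibitors none was at least 2-fold higher, against 11.5% of all genes, and 1 was lower, against 16.5%. Serpinb6a was 4.38-fold lower, and Serpinb9, the granzyme B inhibitor, differed by -0.92. The median of these inhibitors was -0.74, or 0.03 when scaled to the spike-ins.

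Death ligands and effector cytokines had a median of 2.21, with 6 of 9 genes past 2-fold upward and 1 downward, or 8 and none with the spike-in scaling. Lta was 5.98-fold higher, Fasl 5.71-fold higher and Ifng 4.62-fold higher. Tnfsf10, the death ligand TRAIL, was 3.41-fold lower, and Ccl5 was within 2-fold at 0.46. Of 11 further transcription factors of cytotoxic lymphocytes, 5 passed 2-fold upward and 2 downward, with a median of 0.63, or 8 and 1 with the spike-in scaling. Gata3, Stat4 and Runx3, which are also T cell factors, were 5.11-fold, 5.03-fold and 4.87-fold higher. Zeb2, which stromal cells also use, was 3.64-fold lower. Hopx was 2.08-fold lower, or within 2-fold with normexp (-0.88). Il15, the survival factor for NK cells that stroma can supply, was 3.19-fold lower, with 211 on the tumor-draining array and 702 on the normal array. In the IL-15 list 2 of 7 genes were higher and 1 was lower, against 11.5% and 16.5% of all genes, with a median of 0.66. With the spike-in scaling 6 were higher and none lower, where 43.4% of all genes were higher.

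T cell markers moved by a similar or larger amount on the same arrays. All 6 measured T cell markers passed 2-fold upward, with a median of 2.47 and summed signals of 50421 on the tumor-draining array and 10566 on the normal array. Cd8b1 and Cd8a, which mark CD8 T cells, were 5.75-fold and 6.87-fold higher, and all 3 CD4 T cell markers were higher, from 1.49 for Cd4 to 4.13 for Ctla4. All 5 B cell markers were higher, with a median of 1.80. Under normexp the T and B cell medians were 2.38 and 1.58, both above those of receptors (0.83) and granule genes (1.52). All 4 pan-leukocyte genes were higher, with a median of 1.99.

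Of 5 measured NK cell markers that are not members, 2 passed 2-fold upward and 1 downward, with a median of 0.41 and summed signals of 4497 on the tumor-draining array and 1605 on the normal array. Klrb1c, Il2rb and Itga2, described above, are among these 5, and with normexp 1 was higher and none lower. Plasmacytoid dendritic cell, macrophage and mast cell markers had medians of -0.0020, 0.31 and -0.06, or 0.77, 1.08 and 0.71 with the spike-in scaling. All 6 fibroblastic reticular and all 5 endothelial markers were at least 2-fold lower, with medians of -2.22 and -2.84 (with the spike-in scaling, 5 of 6 and 4 of 5). What part these cell types had in the values of the killer receptor and granule genes was not tested.

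**Figure D4:**
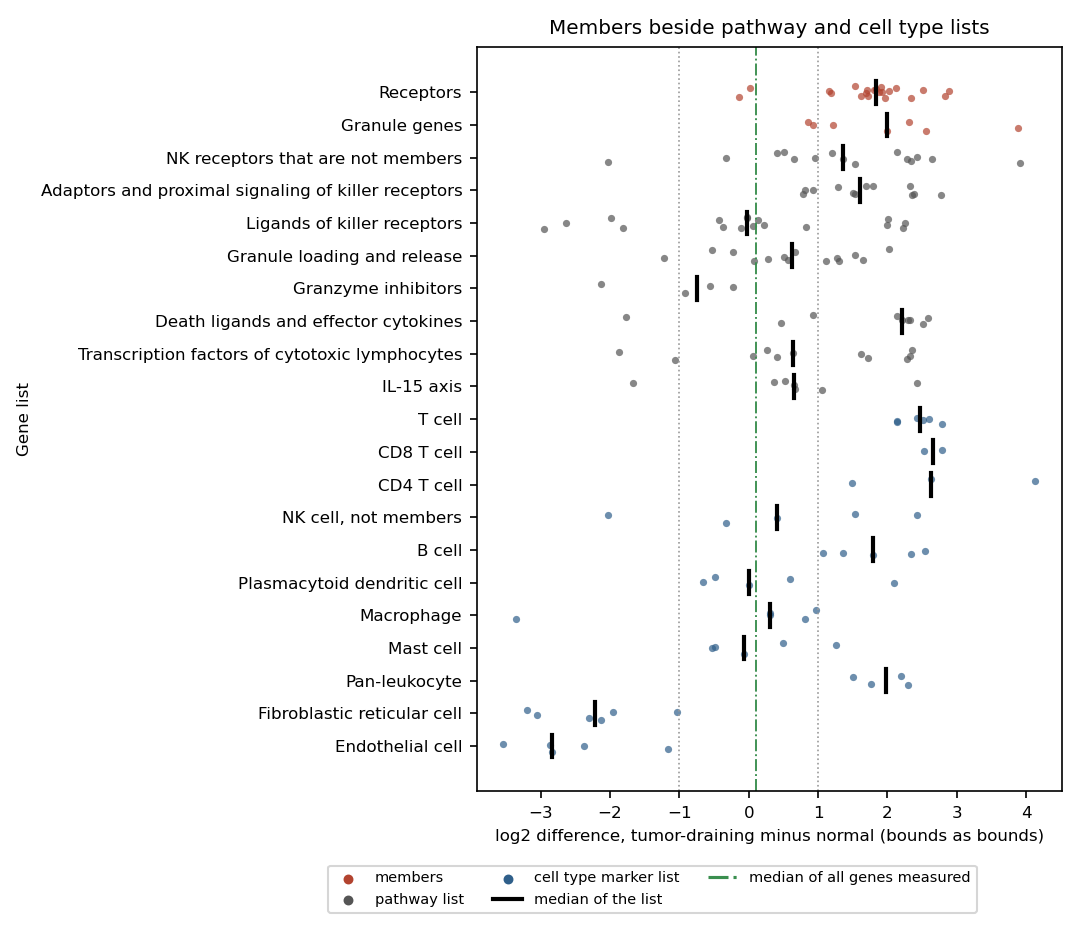
Log2 difference (tumor-draining minus normal) of the measured receptors and granule genes (red), of pathway lists (grey) and of cell type marker lists (blue), with a black bar at each median and the green line at the median of all genes. The receptor and granule medians (1.84 and 2.00) lie between those of B cell (1.80) and T cell markers (2.47). This order was not kept with normexp, where both (0.83 and 1.52) were below the B cell median (1.58). The fibroblastic and endothelial medians lie below -2.

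The higher members included both T-box factors, and Runx3 was 4.87-fold higher, so the 250 bases upstream of the annotated starts (RefSeq, GRCm38.p6) were searched on both strands for AGGTGTGA (T-box), TGTGGTT (RUNX) and AGGAAGT (ETS), which do not overlap each other in the sequences shown. Promoters were matched for 32 members. A member counts if any of its promoters holds the letters, whereas the percentages are shares of promoters. The member counts and the percentages are therefore in different units and cannot be compared directly. The T-box letters were found in 1 of them, Nkg7, and in 1.12% of all 32851 promoters. The RUNX letters were found in 11 members and in 4.40% of all promoters. Klre1 is among the 11, although another of its promoters lacked the letters. The ETS letters were found in 7 members, against 7.69%. Of the 11 members with the RUNX letters, 5 were at least 2-fold higher, and 4 were granzymes below background on both arrays (Gzmd, Gzme, Gzmf and Gzmg). The upstream regions of Gzmc, Gzmd, Gzme, Gzmf and Gzmg resemble each other, with 79.2% to 95.2% of the 250 bases identical in each pair. These 5 genes all hold both the RUNX and the ETS letters and do not count as separate observations. Gzmb and Gzmd share 56.4%. Those of Gzmb, which was measured, of Gzmd, which was not, and of Nkg7 are shown with the letters found in capitals.
Gzmb, chr14:56262335-56262584, minus strand: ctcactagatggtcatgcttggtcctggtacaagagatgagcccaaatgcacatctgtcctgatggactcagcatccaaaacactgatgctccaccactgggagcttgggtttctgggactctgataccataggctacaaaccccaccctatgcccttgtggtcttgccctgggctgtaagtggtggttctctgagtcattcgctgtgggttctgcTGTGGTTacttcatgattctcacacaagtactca
Gzmd, chr14:56132594-56132843, minus strand: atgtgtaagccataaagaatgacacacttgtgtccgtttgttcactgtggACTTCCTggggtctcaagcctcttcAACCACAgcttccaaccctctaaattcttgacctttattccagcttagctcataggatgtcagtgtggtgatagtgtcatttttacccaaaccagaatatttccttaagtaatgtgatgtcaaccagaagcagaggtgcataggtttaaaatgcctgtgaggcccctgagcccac
Nkg7, chr7:43436888-43437137, plus strand: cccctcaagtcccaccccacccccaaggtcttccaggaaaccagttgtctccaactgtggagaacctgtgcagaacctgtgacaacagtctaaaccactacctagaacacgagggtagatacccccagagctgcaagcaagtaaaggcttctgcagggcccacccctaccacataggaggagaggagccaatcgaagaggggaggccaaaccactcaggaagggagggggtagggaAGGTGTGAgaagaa
The same RUNX letters thus stand upstream of Gzmb and of neighbours that were below background. These matches are descriptions of letters in a window and not of binding.

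Other ways of processing the arrays moved the medians as the plot of settings shows. The receptor median was 0.83 with normexp and 2.62 when scaled to the spike-ins. For granule genes these values were 1.52 and 2.77.

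**Figure D5:**
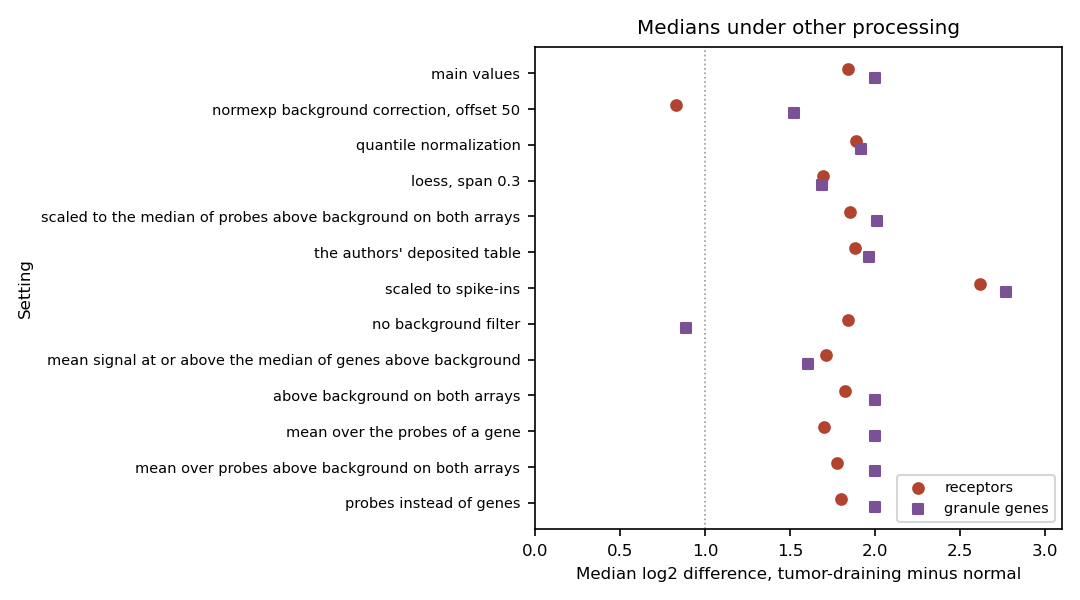
Median log2 difference (tumor-draining minus normal) of receptors (red circles) and granule genes (violet squares) under each processing setting, with the dotted line at 2-fold. All medians lie above 0, and those under the 2-fold line are the receptors with normexp (0.83) and the granule genes without a background filter (0.89), a setting that brings in the 5 granzymes at the floor.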

How the data were processed

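Amplified Cy3-labeled RNA, 1 sample per group, was measured on 2 one-color Agilent arrays, per the labels' protocols. They share a slide and a scan, per the file headers. The authors deposited scanner output with linear intensities per spot, background-subtracted by Agilent Feature Extraction 12.0.3.1 with the protocol GE1_1200_Jun14 and the build mm9, as the file headers record. Version 10.7 and limma are named in the submitters' processing notes. The authors' deposited table holds log2 values of unstated scale and centering, with column medians of 4.86 (tumor-draining) and 4.85 (normal). They correlated with the log2 signals of the same array (r = 0.9999 for each) and were used as an alternative only.

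Here the log2 signal of each non-control spot was reduced by its array's 75th percentile (signals of 358 on the tumor-draining and 374 on the normal array). Outlier spots were dropped, replicate spots were averaged and each gene took its brightest probe. A probe counted as above background if 50% or more of its spots were marked so by the software. For the counts of genes above background on each array, a gene counted if any of its probes did. Whether a gene was measured on 1 or both arrays, its bound and its call followed its brightest probe. No spot was saturated. A gene above background on 1 array only has only a bound: its bright value is set against its dim value or, if that is larger, the dim array's lowest detected signal.

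Differences are tumor-draining minus normal, with no test. The naming rule took every member measured on at least 1 array, and the ends of each list. The members and lists were chosen with earlier results of these data known. Alternatives were normexp (offset 50), quantile, loess (span 0.3), other scalings, filters and probe rules. Tools were Python 3.11.15, numpy 2.4.6, pandas 2.3.3, R 4.3.3 and limma 3.58.1. One marker list is not reported here.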

Additional observations from a re-analysis of the deposited data

How the results depend on the processing

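No direction of a member called 2-fold higher turned under any alternative. Receptors at least 2-fold higher numbered 19, but 6 with normexp and 2 among genes brighter than the median gene, a filter that removes dim genes by construction. Granule genes numbered 5, and 3 under that filter. The receptor median of 1.84 was 0.83 with normexp and 2.62 when scaled to spike-ins. The granule median of 2.00 was 1.52 with normexp, 1.69 with loess, 1.61 among brighter genes, 0.89 without a background filter and 2.77 when scaled to spike-ins. Over all genes, 2829 were higher and 4075 lower, against 1393 and 2446 with normexp and 10717 and 2086 with spike-ins. The cause of the differences between scalings was not tested. The mean over probes was 0.18 for Klra5, 0.87 for Klra22 and 0.94 for Klra12, all under 2-fold. No paired analysis was possible because each group has 1 array. Dim signals limit the receptors most, with 13 of 21 under 100 on the tumor-draining array.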
